A study of Mus musculus with 9 samples.

Results

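The 8 genes described here are the globin genes of the mouse and *Alas2*, measured in single cells of the embryonic neocortex. They were chosen by name, as the 3 alpha-type globins *Hba-a1*, *Hba-a2* and *Hba-x*, the 4 beta-type globins *Hbb-bs*, *Hbb-bt*, *Hbb-y* and *Hbb-bh1*, and *Alas2*. They are 8 of the 17487 genes that the files of the 9 libraries hold between them, and every cell was kept, whatever its haemoglobin content.

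Neocortices were dissected at E18.5 from littermates bred from mice haploinsufficient for *Tcf4*. The data comprise 5 libraries labelled wildtype (WT) and 4 labelled *Tcf4* knockout (KO), each from 1 embryo, and all 9 carry the strain label Tcf4ex4WT/lacZ. In the knockout both alleles carry a lacZ/neomycin cassette ahead of exon 4, and a shorter isoform of the protein persists, so the model removes part of the TCF4 protein and not all of it. Cells were captured with the Chromium 3′ v2 chemistry, which tags every captured molecule with a barcode of its own, so that transcripts are counted as unique molecular identifiers (UMIs). The study left cells with much background of blood transcripts out of its analysis, but the files still hold cells of up to 75.3% haemoglobin, so the limit it set does not show in them.

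Haemoglobin carries oxygen in red cells as a tetramer of alpha-type and beta-type chains around haem. Primitive red cells from the yolk sac use the embryonic chains *Hba-x* (zeta), *Hbb-y* (epsilon y) and *Hbb-bh1*, and definitive red cells, which come from the fetal liver at later stages, use the adult chains *Hba-a1*, *Hba-a2*, *Hbb-bs* and *Hbb-bt*. *Alas2* encodes the erythroid form of the enzyme that starts haem synthesis. In brain tissue these transcripts are usually taken as a mark of blood.

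The genes lie in 3 places of GRCm38 (GENCODE vM21). The alpha cluster on chromosome 11 holds *Hba-x* (32276400 to 32278116), *Hba-a1* (32283511 to 32284465) and *Hba-a2* (32296489 to 32297298), all on the plus strand. The beta cluster on chromosome 7 holds *Hbb-bt* (103812524 to 103813996), *Hbb-bs* (103826534 to 103828096), *Hbb-bh1* (103841637 to 103843164) and *Hbb-y* (103851749 to 103853216), all on the minus strand. *Alas2* lies on the plus strand of the X chromosome (150547375 to 150570638).

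The promoters of 6 globins are shown because the members of each adult pair moved together across libraries, whereas the split within the beta pair varied from cell to cell. Each line gives the 150 bases before the RefSeq start (GRCm38.p6), 5′ to 3′ on the gene's strand, with capitals for matches on either strand to TATAA (the TATA box), CCAAT (the CCAAT box), CACCC (bound by factors of the Klf family) and GATAA (bound by Gata factors), and adjoining or overlapping matches run together. The GENCODE genes begin upstream of the RefSeq starts and cover part or all of the bases shown, for *Hba-a2* and *Hbb-y* only the last few.
Hba-a1 (chr11:32283522-32283671, plus): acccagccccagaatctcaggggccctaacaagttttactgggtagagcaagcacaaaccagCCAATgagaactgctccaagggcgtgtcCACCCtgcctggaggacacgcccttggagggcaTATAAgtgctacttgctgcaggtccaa
Hba-a2 (chr11:32296342-32296491, plus): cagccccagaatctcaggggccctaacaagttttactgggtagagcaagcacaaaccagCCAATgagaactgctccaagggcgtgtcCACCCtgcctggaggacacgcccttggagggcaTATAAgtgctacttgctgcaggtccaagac
Hbb-bs (chr7:103827929-103828078, minus): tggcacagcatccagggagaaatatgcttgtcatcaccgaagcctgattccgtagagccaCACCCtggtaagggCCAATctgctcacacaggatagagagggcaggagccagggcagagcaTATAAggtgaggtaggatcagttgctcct
Hbb-bt (chr7:103813924-103814073, minus): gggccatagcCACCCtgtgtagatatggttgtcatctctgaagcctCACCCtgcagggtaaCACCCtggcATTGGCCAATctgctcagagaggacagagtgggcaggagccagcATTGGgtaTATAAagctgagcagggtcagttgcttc
Hba-x (chr11:32276450-32276599, plus): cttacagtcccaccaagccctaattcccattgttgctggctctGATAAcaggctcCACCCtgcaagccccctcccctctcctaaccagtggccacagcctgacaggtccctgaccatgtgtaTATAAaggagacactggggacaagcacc
Hbb-y (chr7:103853208-103853357, minus): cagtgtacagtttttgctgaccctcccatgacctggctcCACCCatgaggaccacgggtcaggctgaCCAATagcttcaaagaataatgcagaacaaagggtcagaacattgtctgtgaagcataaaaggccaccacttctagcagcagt

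The windows of *Hba-a1* and *Hba-a2* were 98.8% identical over 250 bases before the start, and those of *Hbb-bs* and *Hbb-bt* 72.8%. All 4 adult globins hold the motifs TATAA and CCAAT and also CACCC in these 150 bases, as did 1.1% of the 32851 promoter windows in the table (360 windows). *Hba-x* lacks CCAAT, *Hbb-y* lacks TATAA, and *Alas2*, whose window was searched but is not shown, holds CACCC and GATAA alone of the 4 motifs. Singly, the motifs are common: TATAA was found in 14.2% of all windows, CCAAT in 24.5%, CACCC in 37.4% and GATAA in 13.3%. A window for *Hbb-bh1* was not used here.

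The transcripts of the pairs are close copies, with 96.9% identity between *Hba-a1* and *Hba-a2* and 92.7% between *Hbb-bs* and *Hbb-bt*. Of all stretches of 98 bases in the last 400 bases of *Hba-a1*, 67.7% occur unchanged in *Hba-a2*, and 47.5% of those of *Hbb-bs* occur unchanged in *Hbb-bt*. The counts of single paralogues are therefore uncertain, since a read from such a stretch fits both genes. How far sums over the 7 globins (haemoglobin UMIs below) are affected was not tested.

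Libraries held 120 to 6208 cells and 348105 to 29767293 UMIs, with medians of 2191.5 to 4362 UMIs per cell. As a check of the labels, *Tcf4* averaged 12.1 to 12.6 UMIs per 10000 in the libraries WT2, WT3 and WT4, against 9.22 in KO4 and 7.64 in KO5. It went against the labels in WT1 (4.52), WT5 (7.19) and KO1 (16.4), which are called by their labels here. The genotypes were compared between WT2, WT3 and WT4 and KO4 and KO5, after the study's own selection, with all 9 libraries as an alternative. The study left out libraries with few cells, which are here WT1 (131 cells), KO1 (347 cells) and KO2 (120 cells), and a WT animal with low *Tcf4*, which it does not number and which is taken here to be WT5. KO2 had 9.04 *Tcf4* UMIs per 10000, near KO4, and its summed haemoglobin share of 0.309% was nearer to WT4 (0.254%) than to KO4 (0.640%). Of 21822 barcodes, 323 occurred in 2 libraries and 1 in more, and 2 of the 47 cells richest in haemoglobin (over 10%, described below) had such a barcode. Cells were sorted into classes by expression without the 8 genes, and a class is named "-like" after the type whose markers it carried. A large unnamed cluster, in which no type's markers stood out, held 85.3% of the cells of WT5, 85.3% of KO5, 66.4% of WT1 and 61.3% of KO4, but 5.98% of WT4, 5.0% of WT3 and 7.31% of WT2.

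Haemoglobin was spread over the cells of some libraries and lay largely in a few cells in others. The median share of a cell's UMIs that were haemoglobin was 0.0472% in WT2, 0.0726% in WT3 and 0.0423% in WT4. It was 0.323% in KO4 and 0.915% in KO5. Among the remaining libraries it was 0.189% in WT1, 0.460% in WT5, 0.0264% in KO1 and 0.158% in KO2. WT5 thus lay between KO4 and KO5, and KO1 lay below every WT library. In counts this was a median of 21 haemoglobin UMIs per cell in KO5, 11 in WT5 and 8 in KO4, against 1 to 4 in the other 6 libraries.

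**Figure D1:**
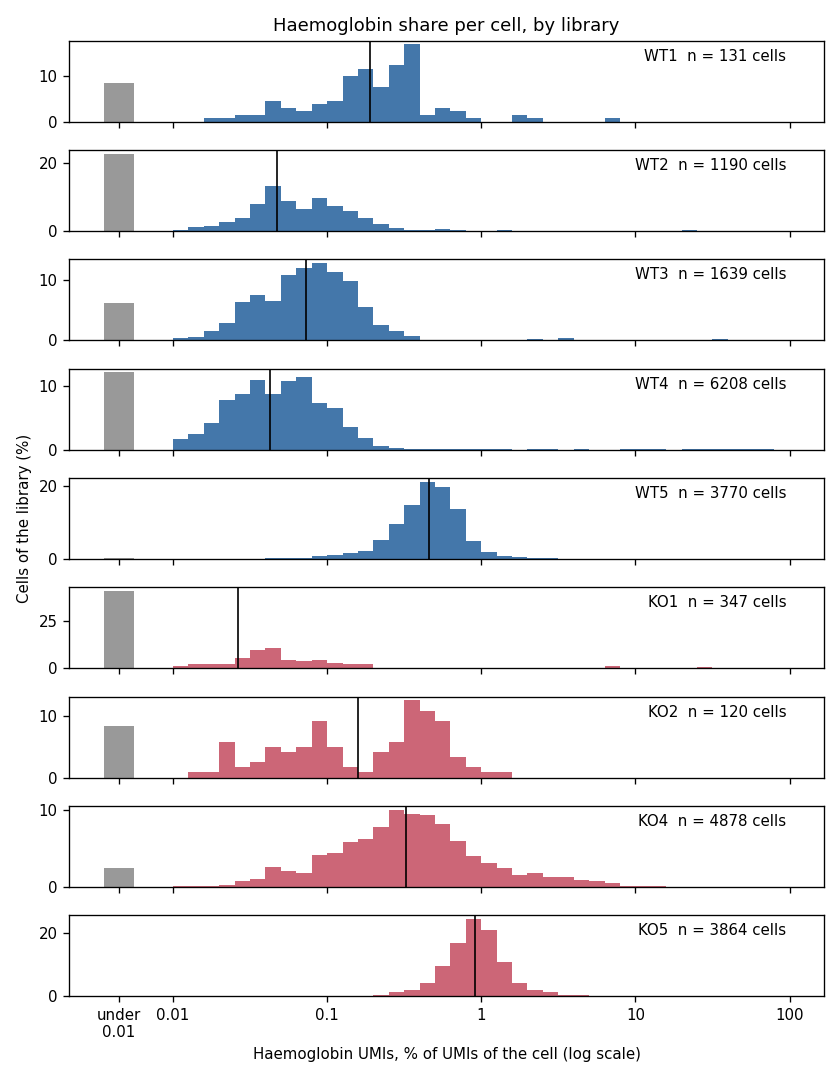
Each panel shows 1 library, with the haemoglobin share of a cell (% of its UMIs, log scale) on the horizontal axis and the percentage of the library's cells on the vertical axis, blue for WT and red for KO. The grey bar counts cells under 0.01%, nearly all with no haemoglobin UMI, and the black line marks the median, which runs from 0.0264% in KO1 to 0.915% in KO5.

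No cell of KO5 was without haemoglobin UMIs (0 of 3864 cells, which allows up to 0.0776%), whereas 22.8% of WT2, 12.1% of WT4 and 40.9% of KO1 cells had none. *Hbb-bs*, the most abundant member, was detected in 99.97% of KO5, 98.2% of WT5 and 91.5% of KO4 cells, and in 52.9% of WT2, 76.0% of WT3 and 67.9% of WT4 cells. After each cell was thinned to 1800 UMIs, these percentages became 99.7 in KO5, 96.2 in WT5 and 87.2 in KO4, and 39.8 in WT2, 49.5 in WT3 and 38.4 in WT4. KO5, WT5 and KO4 thus kept the highest shares at equal depth.

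Single cells could carry far more. Cells with over 10% haemoglobin, a limit chosen after the data had been seen, numbered 3 in WT2, 5 in WT3, 23 in WT4, 1 in WT5, 5 in KO1, 7 in KO4 and 3 in KO5, which is 47 in all. The shares nearest to the limit were 9.81% below it and 10.04% above it, so no gap separates these cells from the rest. WT4 had the highest, at 75.3%, and all 8 cells above 50%. The 23 cells held 78.7% of the haemoglobin UMIs of WT4, and the few such cells held 46.6% in WT2, 47.9% in WT3 and 77.3% in KO1. In KO4 and KO5 they held 2.47 and 1.1%. In WT5 the share was 1.24%, and WT1 and KO2 had no such cell. Mean and summed levels of WT4 and KO1, and to a lesser degree of WT2 and WT3, thus rest on a handful of cells.

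Between 1 and 10%, KO4 held 670 cells and KO5 1558, against 2 in WT2, 17 in WT3 and 12 in WT4. WT5 held 139. In KO4 the distribution was wide, with the highest 5% of cells above 2.54%, and in KO5 it was narrow, with the middle 90% of cells between 0.423 and 1.89%. Among cells at 10% or less and thinned to 1800 UMIs, the variance of haemoglobin UMIs was 7.5 times the mean in KO5 and 5.03 times in WT5, but 30.6 times in KO4 and 9.41 times in WT4. Counting error alone gives a ratio of 1. In KO2 the unnamed cells had a median of 0.299% against 0.0511% in its radial glia- or astrocyte-like cells.

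How far haemoglobin UMIs rose with the depth of a cell differed between libraries. In the third of WT4 cells with the fewest UMIs (mean 3093.5) there were 2.41 haemoglobin UMIs per cell, and in the third with the most (mean 6885) there were 2.87, cells over 10% left out. In WT3 they were 3.34 and 6.58 at means of 2751.5 and 5930 UMIs. In KO5 the values were 19.8 and 29.0 at means of 1937 and 2947 UMIs, so that the share stayed at 1.02 and 0.983%. In KO4 they were 12.3 and 21.7 at means of 1976 and 3503 UMIs. Over single cells, which share their library, Pearson's r between haemoglobin UMIs and total UMIs was 0.038 in WT4 (6185 cells), 0.24 in KO5 (3861 cells) and 0.17 in KO4 (4871 cells).

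The summed haemoglobin share was higher in both KO libraries than in all 3 WT libraries, about 4-fold. It was 0.124% in WT2, 0.228% in WT3, 0.254% in WT4, 0.640% in KO4 and 1.02% in KO5, or 0.202 ± 0.0685% (SD, n = 3) for the WT and 0.832 ± 0.271% (SD, n = 2) for the KO libraries. The difference in mean log2 share was 2.07 (2-sided exact permutation test, p = 0.1, the smallest that 3 against 2 libraries can give, and p = 0.3 after Benjamini-Hochberg adjustment over 6 such tests). With the median cell in place of the sum it was 3.37, and in cells with at most 1% haemoglobin 2.90 (both p = 0.1 in the exact permutation test). With WT5 added to the WT group the difference of the summed share was 1.72 (exact permutation test, p = 0.0667). WT2 and WT3 were deposited as log values and the other 3 as counts, and WT4 alone against KO4 and KO5 gave 1.67.

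With all 9 libraries as labelled, the summed share differed by 1.34 on the log2 scale (exact permutation test, p = 0.0397, adjusted p = 0.119), and the groups overlapped. The median cell then differed by 0.84 (exact permutation test, p = 0.5). KO1 is the library that parts these measures, with the second highest summed share (0.825%) and the lowest median (0.0264%), and 77.3% of its haemoglobin UMIs lay in 5 cells. WT5, KO4 and KO5, the libraries with the highest medians of haemoglobin, were high in the share of the unnamed cluster and had medians of 2191.5 to 2291 UMIs per cell. By the median cell, WT1 (66.4% unnamed cells, median of 2338 UMIs) came next with 0.189% haemoglobin, then KO2 (28.3% unnamed) with 0.158%. WT2, WT3, WT4 and KO1, with 5.0 to 11.2% unnamed cells, had 0.0264 to 0.0726%. The summed share ran otherwise. WT1 had 0.282%, WT2, with a median of 2478.5 UMIs, had 0.124%, and KO1 had 0.825%, mostly from the 5 cells above. The part of the unnamed cluster or of depth in the difference was not tested.

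Cells above 1% haemoglobin made up 27.1 ± 18.8% (SD, n = 2) of the cells of KO libraries and 0.775 ± 0.496% (SD, n = 3) of those of WT libraries (exact permutation test, p = 0.1, adjusted p = 0.3). This is 13.9% in KO4 (95% exact binomial interval 12.9 to 14.9%) and 40.4% in KO5 (38.8 to 42.0%). With a limit of 0.5% in place of 1% the difference between the genotypes was 60.7 percentage points, and with 2% it was 4.92, against 26.4. Thinning every cell to 1800 UMIs gave 13.6 and 38.0%, and WT2, WT3 and WT4 then had 0.421, 1.34 and 0.548%. Such intervals cover counting error only.

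The 4 adult globins were tested for the genotypes with limma-trend over 8554 genes, on the log2(value + 1) scale of mean UMIs per 10000, with an adjusted p under 0.05 counted as called. All 4 that passed the filter on low values were called, all higher in KO, against 1.05% of all genes tested that were called higher in KO and 1.15% called in either direction. Likewise both KO libraries lay above all 3 WT libraries for each of the 4, as for 9.42% of all genes. Ranked by the size of their rise, they were the first 4 of the 8554 genes. The remaining 4 members, *Hba-x*, *Hbb-y*, *Hbb-bh1* and *Alas2*, did not reach 0.1 UMIs per 10000 in 2 of these libraries and were not in the fit.

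*Hbb-bs*, an adult beta chain, had 6.52 UMIs per 10000 in WT2, 9.57 in WT3 and 10.2 in WT4, against 31.8 in KO4 and 48.3 in KO5. It rose by 2.06 on the log2 scale, with a standard error of 0.24 (limma, adjusted p = 0.0107). WT5 had 24.4, WT1 16.8, KO1 35.2 and KO2 11.8, so the labelled groups overlap once these are counted.

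*Hbb-bt*, the other adult beta chain, had 1.06 UMIs per 10000 in WT2, 2.3 in WT3 and 2.57 in WT4, against 7.19 in KO4 and 13.5 in KO5. It changed by 1.91 on the log2 scale (standard error 0.30, adjusted p = 0.0376 from limma), and WT5, at 6.49, lay just under KO4. It was the one of the 4 whose call was lost with edgeR (adjusted p = 0.0613), with a pseudocount of 0.1 (limma, adjusted p = 0.0507) and without WT3 (limma, adjusted p = 0.0658).

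*Hba-a1* had 3.18 UMIs per 10000 in WT2, 5.86 in WT3 and 4.78 in WT4, and it had 14.5 in KO4 and 23.3 in KO5. Its rise of 1.82 on the log2 scale had a standard error of 0.26 (limma, adjusted p = 0.0232). *Hba-a2*, which encodes the same kind of alpha chain, had 2.29, 4.33 and 3.56 in the WT libraries and 10.8 and 17.9 in KO4 and KO5, a rise of 1.80 with a standard error of 0.25 (limma, adjusted p = 0.0240). In WT5 the alpha genes stood at 11.3 and 8.76, again near KO4 and far above WT2 to WT4.

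**Figure D2:**
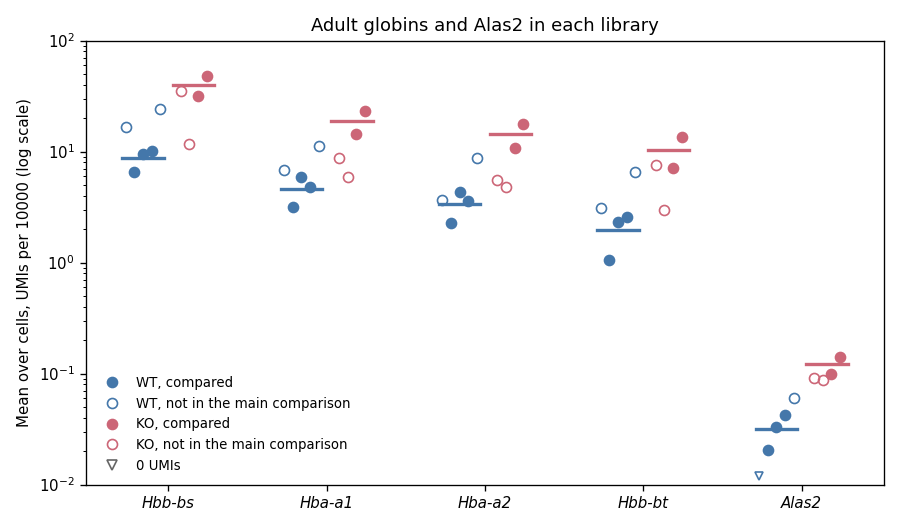
The mean over cells of UMIs per 10000 is shown on a log axis for the 4 adult globins and *Alas2*, with a point per library, filled for the 5 libraries compared and open for the others, and bars at the mean of the filled points. For *Hbb-bs* the filled WT points lie at 6.52 to 10.2 and the filled KO points at 31.8 and 48.3, while the open points of WT5 (24.4) and KO2 (11.8) fall between the groups.

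These calls rest on which libraries stand in the WT group. With WT5 added, the changes were 1.5 to 1.71 and none of the 4 was called (adjusted p = 0.676 for each). With all 9 libraries they were 0.87 to 1.15, with an adjusted p of 0.948 for each, and 0% of 9143 genes were called. Without the cells above 10% haemoglobin all 4 were called, with larger changes of 2.54 to 3.02 (adjusted p = 0.00669 to 0.0079), since the WT means then fell to 3.44, 5.53 and 3.06 UMIs per 10000 for *Hbb-bs* in WT2, WT3 and WT4. Leaving out WT2 removed all 4 calls (changes of 1.60 to 1.89, adjusted p = 0.0754 to 0.129 from limma), as did leaving out KO5 (changes of 1.46 to 1.77, adjusted p = 0.0859 to 0.183 from limma). Over all genes, 0% of 8604 were called with WT5 added, 0% of 8348 without WT2 and 0.13% of 8447 without KO5. Without the cells above 10% it was 1.15% of 8554. The losses with WT5 added and without WT2 thus covered every gene tested.

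*Alas2* was rare but followed haemoglobin. It had 0.0204 UMIs per 10000 in WT2, 0.0327 in WT3 and 0.0421 in WT4, from 7, 25 and 148 UMIs, and 0.0998 in KO4 and 0.142 in KO5, from 127 and 124 UMIs. WT5 had 0.0599, KO1 0.0905 and KO2 0.0869, and no *Alas2* UMI was seen in WT1, whose 348105 UMIs allow up to 0.0862 per 10000. Both KO libraries lay above the 3 WT libraries, as for 9.42% of the genes that passed the filter, which *Alas2* did not. In a fit with no filter on low values limma gave it 0.12 on the log2(value + 1) scale, with a standard error of 0.021 (adjusted p = 0.179). Per 1000 haemoglobin UMIs, *Alas2* stood at 1.62 in WT2, 1.62 in WT3, 1.96 in WT4, 1.57 in KO4 and 1.33 in KO5, a far narrower range than its level.

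The balance between the chains did not differ detectably between the genotypes, although 3 against 2 libraries cannot give a p below 0.1. Alpha-type UMIs made up 41.3% of globin UMIs in WT2, 46.3% in WT3 and 39.5% in WT4, and 39.3% in KO4 and 40.1% in KO5. The genotypes differed by -2.68 percentage points (exact permutation test, p = 0.5), and by -0.694 without WT3. The odd one out was KO1, at 24.4% (95% exact binomial interval 23.6 to 25.3%), where all 5 cells over 10% lay between 21.6 and 29.7% and the cells at or under 1% had 30.8% (26.1 to 35.7%). WT1 had 34.6% and WT5 39.4%.

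*Hba-a2* made up 42.0% of the alpha pair in WT2, 42.3% in WT3, 42.7% in WT4, 42.8% in KO4 and 43.4% in KO5. The difference was 0.726 percentage points (exact permutation test, p = 0.2), with no overlap between the groups but a reversed sign in cells at or under 1% haemoglobin, where it was -0.0606 (exact permutation test, p = 1). *Hbb-bt* made up 14.4% of the adult beta pair in WT2, 17.8% in WT3, 21.1% in WT4, 18.4% in KO4 and 21.9% in KO5 (difference 2.41, exact permutation test, p = 0.4). That difference was 0.727 without WT2, 4.07 without WT4, 4.17 without KO4 and 0.644 without KO5. Adjusted over the 6 tests, no p was under 0.3.

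The beta pair was split unevenly between cells. Among the 47 cells over 10%, *Hbb-bt* made up 0.926 to 40.7% of the pair, with a median of 21.6%. The lowest value came from a WT4 cell with 2 *Hbb-bt* and 214 *Hbb-bs* UMIs (95% exact binomial interval 0.112 to 3.30%), and the highest from a KO5 cell with 90 and 131 (34.2 to 47.5%). Within WT4 alone the 23 cells ranged from 0.926 to 35.4%, a chi-square of 55.1 per degree of freedom about their common split. The alpha pair was far more even, with *Hba-a2* at 36.1 to 48.9% in the same cells and a chi-square of 3.08 per degree of freedom. Counting error gives about 1. Among cells at or under 1% haemoglobin the library values of the *Hbb-bt* split were 17.6% in WT4, 17.4% in WT2, 16.6% in WT3, 17.3% in KO4, 20.9% in WT5 and 21.4% in KO5.

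**Figure D3:**
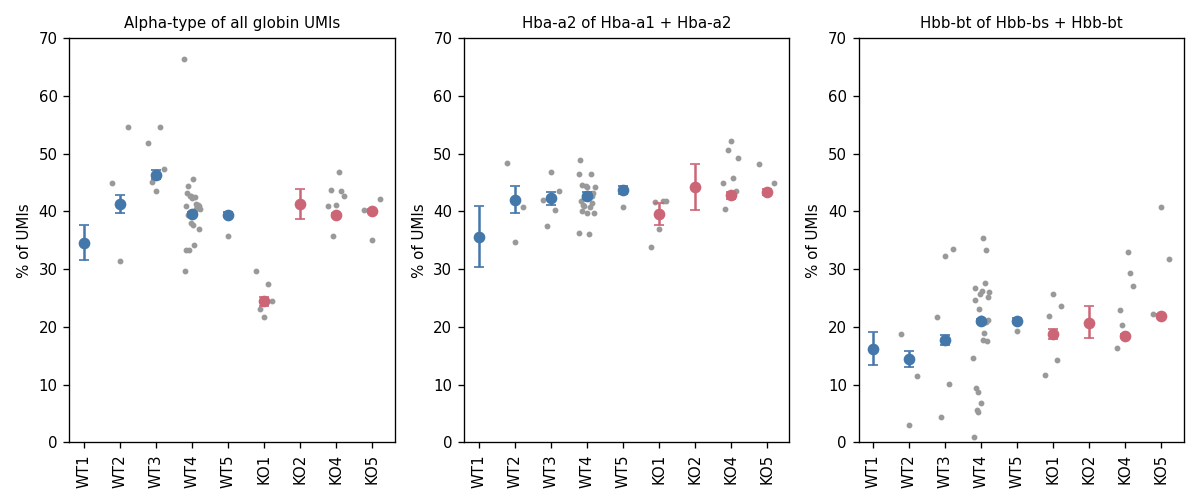
The 3 panels give, as a percentage of UMIs, the alpha-type share of all globin UMIs, *Hba-a2* of the alpha pair and *Hbb-bt* of the adult beta pair, with coloured points for the sum over each library (blue WT, red KO, bars 95% exact binomial intervals) and grey points for single cells over 10% haemoglobin. The grey points of WT4 spread from 0.926 to 35.4% for *Hbb-bt* but from 36.1 to 48.9% for *Hba-a2*, and KO1 stands alone at 24.4% in the first panel.

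Embryonic globins were close to absent. *Hba-x* had 16 UMIs in WT4, 14 in WT5, 2 in WT1 and 2 in KO5, and *Hbb-y* had 96 in WT4, 5 in KO5, 3 in WT1 and 1 in WT5. *Hbb-bh1* gave a single UMI in all 9 libraries, in WT4. WT2, WT3, KO1, KO2 and KO4 had none of the 3, which allows an embryonic share of up to 0.0692% of globin UMIs in WT2 and 0.0037% in KO4. The embryonic share was 0.150% in WT4, 0.0329% in WT5, 0.00749% in KO5 and, from 5 UMIs, 0.509% in WT1 (95% exact binomial upper bound 1.18%). The genotypes could not be told apart (difference -0.0461 percentage points, exact permutation test, p = 1).

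One cell of WT4 supplied 62 of the 113 embryonic UMIs of that library. It had 53 *Hbb-y* and 9 *Hba-x* UMIs among 77 haemoglobin UMIs, so that 80.5% of its globin UMIs were embryonic, in 2601 UMIs in all, and it held no *Alas2* UMI. Its class was interneuron-like. The other 51 embryonic UMIs of WT4 were spread over 49 cells, of which 48 had 1 UMI each, and the 15 of WT5 and 7 of KO5 were all single UMIs.

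None of the 47 cells over 10% haemoglobin carried an embryonic UMI. In WT4 that is 0 of 59415 globin UMIs, which allows up to 0.00505%, whereas in the WT4 cells at or under 1% haemoglobin it was 51 of 14428 (0.353%). The embryonic UMIs of this library and most of its adult globin UMIs thus lay in different cells. Where this RNA came from was not tested.

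Erythroid transcripts outside the globins were far more frequent in the cells over 10% than in the rest, though not in every one of them. Counted against UMIs that are not globin, *Alas2* stood at 14.5 per 10000 in the 23 WT4 cells and at 0.0115 in WT4 cells at or under 1%. In the other libraries the cells over 10% had 7.93 in WT2, 11.03 in WT3, 3.04 in WT5, 5.86 in KO1, 2.03 in KO4 and 4.21 in KO5, and 39 of the 47 cells had at least 1 *Alas2* UMI. Up to 17 were counted in a cell.

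Of 14 other erythroid markers in the files, 8 were detected in the 23 WT4 cells, at 6.86 summed UMIs per 10000 non-globin UMIs against 0.0795 in cells at or under 1%. *Slc25a37*, which carries iron into mitochondria, led with 22 UMIs in 12 cells, and *Trim10* had 7 UMIs there. *Klf1*, *Epor* and *Hemgn*, which mark earlier erythroid stages, were at 0 UMIs in all 47 cells, and so were the red cell membrane genes *Rhag*, *Sptb* and *Ermap*. *Klf1*, *Epor* and *Hemgn* had only 27, 26 and 1 UMIs in all libraries, too few to place the 47 cells by stage. No marker of this list but *Alas2* was seen in the 8 cells over 10% of WT2 and WT3, and 22 of the 47 cells had any.

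Genes of the haem pathway and of the red cell stood higher in these WT4 cells as well (*Slc25a37* counts in the first list too). The 12 genes of haem synthesis summed to 9.19 UMIs per 10000 non-globin UMIs against 3.02, with *Fech*, which inserts iron into haem, at 2.20 against 0.141. The 16 genes of red cell membrane and oxidant defence summed to 34.2 against 15.0, with *Bpgm*, which makes the allosteric effector of haemoglobin, at 7.89 against 0.612, and *Gpx1* at 5.05 against 1.03. Ferritin light chain *Ftl1* stood at 57.8 against 35.5. These are sums over cells chosen by their haemoglobin and carry no test.

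**Figure D4:**
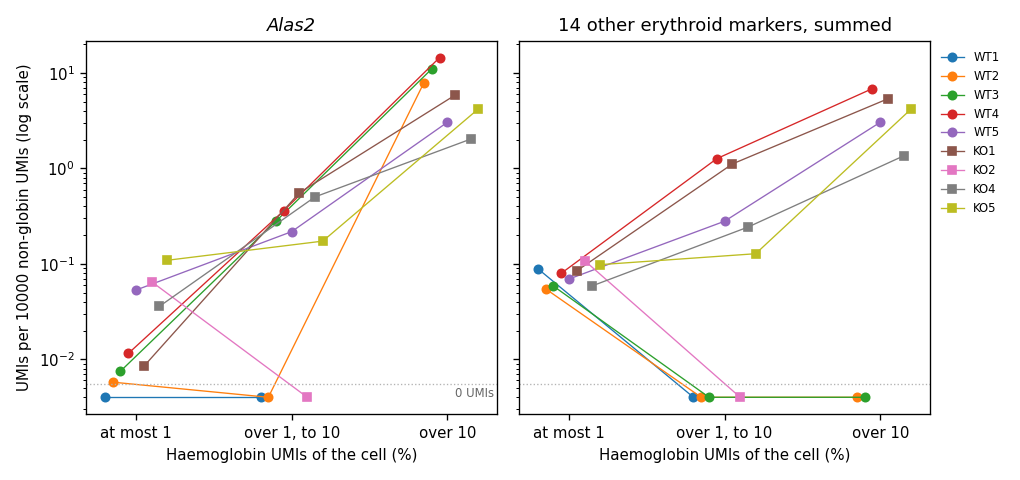
UMIs of *Alas2* (left) and of 14 other erythroid markers summed (right) per 10000 non-globin UMIs are plotted on a log axis for cells with at most 1%, over 1 to 10% and over 10% haemoglobin, 1 line per library, with values of 0 drawn under the dotted line. *Alas2* is highest in the cells over 10% in each of the 7 libraries that hold them, up to 14.5 in WT4, and stays at 0.109 and 0.173 in the lower 2 bins of KO5.

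The cells over 10% also carried many transcripts of other kinds. They had 1612 to 8082 UMIs outside the globins and 1002 to 2999 genes, the fewest just above the 1000 genes that the study required of a cell. Clustering without the members placed them in 11 classes, 14 in the unnamed cluster, 6 with endothelial-like and 5 with newborn neuron-like cells, and no erythroid cluster formed. Markers of endothelial cells summed to 9.32 UMIs per 10000 non-globin UMIs in the 23 WT4 cells against 0.990 in WT4 cells at or under 1%, and those of pericytes and fibroblasts to 5.82 against 0.467. Markers of neurons and glia were present too, those of radial glia or astrocytes at 26.1 against 31.2, of deep layer neurons at 10.1 against 7.18 and of newborn neurons at 6.99 against 11.5. In the 24 such cells of other libraries, endothelial markers stood at 9.08 against 1.68 and pericyte and fibroblast markers at 0.439 against 0.714. No cell was removed as a doublet, and the part of doublets in these profiles was not tested.

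Cells between 1 and 10% had less *Alas2* than those over 10% in each of the 7 libraries with both. Against cells at or under 1% they had more *Alas2* in WT3 (0.281 against 0.0075 per 10000 non-globin UMIs), WT4 (0.362 against 0.0115), KO1 (0.557 against 0.00844) and WT5 (0.218 against 0.0532), from 2 UMIs each in the first 3 and 7 in WT5. In WT2 the 2 such cells had none. In KO5 the 1558 such cells had 0.173 *Alas2* UMIs per 10000 non-globin UMIs, close to the 0.109 of its cells at or under 1%, and 0.128 UMIs of the other 14 markers against 0.0981. In KO4 the 670 such cells had 0.503 against 0.0359 for *Alas2* and 0.243 against 0.0588 for the other markers. Per 1000 haemoglobin UMIs, *Alas2* in these cells stood at 1.15 in KO5 and 1.86 in KO4, beside 1.33 and 1.57 in the whole libraries.

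Low-level haemoglobin reached every class of cell. Within a library the medians of the named classes ran from 0.0311 to 0.0627% in WT4, 0.0567 to 0.0896% in WT3, 0.0359 to 0.0882% in WT2 and 0.221 to 0.445% in WT5. In KO5 they ran from 0.478% in radial glia- or astrocyte-like to 1.05% in endothelial-like cells, and in KO4 from 0.138% in deep layer-like to 0.646% in endothelial-like cells. Between libraries a single class ranged more widely. Upper layer-like cells had medians of 0.0452, 0.0782 and 0.0387% in WT2, WT3 and WT4, 0.166% in KO4, 0.626% in KO5, 0.256% in WT5 and 0.0229% in KO1.

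**Figure D5:**
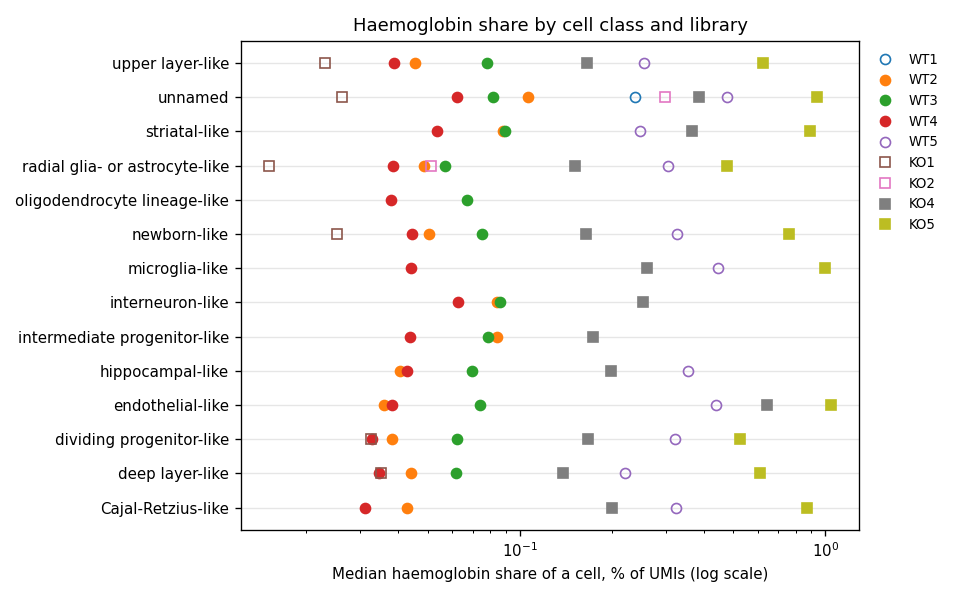
The median haemoglobin share of a cell (% of UMIs, log scale) is given for each class with at least 20 cells in a library, with a circle for WT and a square for KO, open for libraries outside the main comparison. The named classes of a library span bands such as 0.0311 to 0.0627% for the named classes of WT4 0.138 to 0.646% for those of KO4 and 0.478 to 1.05% for those of KO5.

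No class differed from the other cells of its library after adjustment over 14 classes (exact sign permutation of log2 ratios of mean haemoglobin per 10000, lowest adjusted p = 0.25), where rich cells weigh on the means. The design could hardly pass: with at most 9 libraries, the smallest p of a lone class (0.00391) adjusts to 0.0547, and 6 of the 14 classes could not go below 0.0625. Cajal-Retzius-like, hippocampal-like, intermediate progenitor-like, microglia-like and oligodendrocyte lineage-like cells were lower in every library that held at least 20 of them (2 to 5 libraries each). In cells at or under 1% this held for Cajal-Retzius-like (4 libraries) and hippocampal-like cells (5 libraries) only. Intermediate progenitor-like cells were then higher in 2 of 4 libraries, microglia-like in 1 of 3 and oligodendrocyte lineage-like in 1 of 2. Over all cells, 1 class had an unadjusted p under 0.05, deep layer-like cells, lower in 6 of 7 libraries (mean log2 ratio -0.86, exact p = 0.0469). In cells at or under 1% haemoglobin, unnamed cells were higher than the others in 9 of 9 libraries (mean log2 ratio 0.57, SD 0.39, exact p = 0.00391, adjusted p = 0.0547), and radial glia- or astrocyte-like cells were lower in 8 of 8 (-0.60, SD 0.68, exact p = 0.00781, adjusted p = 0.0547). Both are at the smallest p their number of libraries allows, in cells cut by the haemoglobin share that is compared. Over all cells, unnamed cells were higher in 6 of 9 libraries (mean log2 ratio 0.31, exact sign permutation, p = 0.645). Radial glia- or astrocyte-like cells were then higher in 3 of 8 (-0.47, exact sign permutation, p = 0.227). Without the cells above 10% they were lower in 8 of 8 (-0.70, exact sign permutation, p = 0.00781). Deep layer-, newborn neuron- and upper layer-like cells were lower in 7 of 7 (exact sign permutation, p = 0.0156 each). All of these adjust to 0.0547 and are at the smallest p possible. Unnamed cells were higher in 6 of 9 there, and endothelial-like and striatal-like cells in 4 of 6 each. Endothelial-like cells had a ratio of 0.32 over all cells and -0.17 in cells at or under 1%. Of all classes they had the highest percentage of cells above 1% in KO4 (45.0% of 269) and KO5 (53.3% of 105), while the unnamed cluster held the most such cells, 405 in KO4 and 1405 in KO5.

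The chain balance of most classes lay within counting error of the library value. In WT4 the alpha share of cells at or under 1% haemoglobin ran from 32.4 to 38.3% over the 11 classes with at least 200 such UMIs, and for all 11 the exact binomial interval held the library's 36.2%. The same was true of 7 of 7 classes in WT3 (library 43.5%), 9 of 10 in WT5 (39.4%), 11 of 13 in KO4 (38.5%) and 9 of 10 in KO5 (39.7%).

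Genes whose level followed summed haemoglobin most closely were sought over 81 sums of cells by library and class, among 7755 genes. The 5 with the highest Pearson's r on the log2 scale were *Actb* (0.65), *Abhd2* (0.64), *Rpgrip1* (0.64), *Khsrp* (0.64) and *Dpf1* (0.63), none of them an erythroid gene. Sums of a library share its depth and capture, and once each library was centred the same r fell to 0.25, 0.20, 0.17, 0.15 and 0.23. *Alas2*, under the level required of these genes, had 0.64 and kept 0.52. *Actb*, which encodes a cytoskeletal actin, had 40.5 UMIs per 10000 in WT4, 171 in KO4, 171 in KO5 and 197 in WT5, but its highest level, 207, was in WT1, and KO2 had 141, both libraries with a summed haemoglobin share near 0.3%.

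None of the 31 other genes of the erythroid lists that were tested was called between the genotypes with limma, where 1.15% of all genes were called. Of the 12 genes of haem synthesis 10 were tested and 0 called (median log2 change -0.03, against -0.05 over all genes), with *Tmem14c*, *Alad* and *Urod* the most abundant, at -0.01, -0.07 and -0.08. Of 11 genes of haem breakdown and iron storage 7 were tested and 0 called, and *Ftl1* and *Fth1*, the ferritin chains, changed by -0.06 and 0.40, and *Lrp1*, a receptor for the haem scavenger complex, by -0.03. Of 18 genes of the red cell membrane and oxidant defence 7 were tested and 0 called (*Prdx2* -0.34, *Gpx1* -0.01, *Add1* -0.10). The regulators gave 6 tested and 0 called, among them *Bcl11a*, which represses embryonic globins in red cells and is also a neuronal gene, at -0.37 with 4.22 UMIs per 10000 over all libraries, *Ldb1* at -0.02 and *Sox6* at -0.08. Of 7 further globin genes 1 was tested, cytoglobin *Cygb*, at -0.04. *Ngb* and *Hbq1a* had 31 and 21 UMIs in all. None of the 20 erythroid markers reached the level for the fit, and 5 of them were not analysed here.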

How the data were processed

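Single-cell libraries of E18.5 neocortex were mapped and counted by the authors with Cell Ranger (2.1.0 in the submitters' processing notes) and filtered with Seurat 2.3.4 to cells of 1000 to 5000 genes, 1800 to 10000 UMIs and under 6% mitochondrial UMIs. Some matrices were deposited by the authors as UMI counts, and the others as natural log values of UMIs scaled per 10000, from which whole UMIs were recovered here. A gene that a matrix does not list was counted as 0. No doublet caller was run and no cell was removed.

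The 8 genes, the gene lists and the tests were chosen with earlier results of these data known. The text names all members, the 3 most abundant genes of each list, the genes most like summed haemoglobin, and genes singled out after their values were seen. For each library and gene the mean over cells of UMIs per 10000 was taken, and log2(mean + 1) was tested with limma-trend 3.58.1 over genes at 0.1 or more in at least 2 libraries, with Benjamini-Hochberg adjustment. Fold changes on this scale understate those of low genes. edgeR 4.0.16 and DESeq2 1.42.0 on summed counts were alternatives. Single values were compared with 2-sided exact permutation tests over libraries, and classes with exact sign permutation over libraries. The exact tests were tried on made-up values with known answers, and the limma, edgeR and DESeq2 fits on simulated counts.

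Classes came from cells thinned to 1700 UMIs, 2000 variable genes without the members, 30 principal components, 20 neighbours and Leiden clustering at resolution 1 (leidenalg 0.10.2). They were named from at least 3 markers at 1.5-fold. Other thinning was to 1800 UMIs. Intervals are 95% exact (Clopper-Pearson), a count of 0 was taken to allow 3 counts, and both cover counting error only. In libraries of 120 to 6208 cells the precision differs widely. Several further erythroid genes, *Gata1* and *Ahsp* among them, were not analysed here, and 1 item is not reported here.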

Additional observations from a re-analysis of the deposited data

Results flagged for a closer look

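In 42 groups of 4 or 5 libraries, the highest or lowest library was compared with the spread of the others by Dixon's test, and 9 values stood apart. Chance sets apart about 1 in 20 groups of independent, normally distributed values. Where only 1 library of a group has any UMI, the ratio is at its maximum by construction, as below for KO5 and for *Hbb-bh1* in WT4. The 9 of 42 were therefore not set against that rate. KO1 had an alpha-type share of 24.4%, with the next KO library at 39.3%, and WT1 had an *Hba-a2* share of 35.5%, with the next WT library at 42.0%.

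The embryonic globins gave 5 of the 9, all from a few UMIs. KO5 was the only KO library with any, at an embryonic share of 0.00749%, with *Hba-x* at 0.00243 and *Hbb-y* at 0.00575 UMIs per 10000. WT1 had 0.0691 *Hba-x* UMIs per 10000 from 2 UMIs, against 0.0159 in WT5. The *Hbb-bh1* level of 0.000447 in WT4 is a single UMI.

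Of the classes, interneuron-like cells of WT3 had a log2 ratio of haemoglobin to the other cells of 2.68, with the next library at -0.46. Of these 32 cells 1 had 37.7% haemoglobin, and the median of the class was 0.0862%. Microglia-like cells of WT4 had -1.94, with the next at -0.13. Their median was 0.0441%, beside 0.0423% over all cells of WT4, where 23 cells held 78.7% of the haemoglobin UMIs. WT5, which was outside the 5 libraries compared, had a median haemoglobin share per cell of 0.460%, above the highest of WT2, WT3 and WT4 (0.0726%).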

How the results depend on the processing

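With 3 against 2 libraries no exact permutation test could pass 0.05. With all 9 libraries the differences in share (1.34, p = 0.0397) and in cells above 1% (13.2, p = 0.0317) passed in the exact permutation test before adjustment. Leaving out 1 library gave 1.73 to 2.41 for the share, 13.1 to 39.6 for cells above 1%, and -0.0711 to 0.00375 for the embryonic share, positive without WT4. In cells at or under 1% the *Hba-a2* difference was -0.0606.

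The number of member genes called, 4, became 0 with no filter, all 9 libraries, WT5 added, replicates 1, 2, 4 and 5 with a replicate block, or those without one, and ran from 0 to 4 without 1 library. edgeR and limma with a pseudocount of 0.1 called 3 (not *Hbb-bt*) and DESeq2 4. Over all genes, limma called 98, DESeq2 359, limma without a filter 5, without WT4 1388, without KO4 19 and without KO5 11. It called 0 without WT2, with WT5 added, with all 9 libraries and with the block, where 1787, 183, 288 and 208 genes had an unadjusted p under 0.05.

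Same-numbered libraries did not all deviate together (r = 0.000775, 0.29, 0.21 and 0.53 over 8554 genes), and KO4 was closest to WT5 (r = 0.57). Whether the numbers mark pairs could not be told from this. With that replicate block the difference in share was 1.30 (exact sign permutation, p = 0.125, the smallest for 4 pairs).

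No class was called under the alternatives run, but the smallest adjusted p of a lone class is 0.0547, so this says little of stability. Log2 ratios changed sign for deep layer-like cells with joint scaling (0.19, where that class takes in a cluster of 10751 cells mostly of the libraries rich in unnamed cells, and no class is left unnamed), dividing progenitor-like cells at Leiden resolution 2 (0.0263), endothelial-like cells at or under 1% (-0.17), striatal-like cells at or under 1% (0.0345) and 10% (0.27), and interneuron-like cells by UMIs per cell (-0.16) and at or under 10% (-0.0411). Without 1 library interneuron-like cells ranged from -0.78 to 0.45 and unnamed cells from -0.038 to 0.85. The cause of these changes was not tested. Alternatives at the 10% limit, at 1800 UMIs and without the block were chosen after seeing the data.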
